A study of Mus musculus with 7 samples.

Results

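The genes described here encode the T cell receptor's signalling chains and the coreceptors, kinase, costimulatory receptor and regulatory factor that define T cell subsets. They are 10 of the 20354 genes in a count table from the nonparenchymal fraction of mouse liver, which holds immune, endothelial and stellate cells. They were taken by symbol, namely Cd3d, Cd3e, Cd3g, Cd247, Cd4, Cd8a, Cd8b1, Lck, Cd28 and Foxp3. All 10 had a row and all 10 passed the filter on low counts. RNA was sequenced from untreated mice of the C57BL/6J strain at 2 months of age. The WT group has 4 libraries, and the labels do not say whether these mice carried the floxed allele or the Cre. The knockout (KO) group has 3 libraries from Shp2f/f:Clec4f-Cre+/- mice, where Cre is driven by Clec4f, which marks the liver's own macrophages (Kupffer cells), and is directed at the floxed phosphatase gene Ptpn11 (Shp2) there, not in T cells. One label field gives the KO genotypes as Shp1, Shp2 and Shp3, but every title names Shp2, and the titles were followed. The labels do not say that each library came from a separate mouse, so a p-value here reflects only how these libraries vary, which may be technical.

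A T cell recognises peptides on MHC molecules through a receptor of paired variable chains, which have almost no cytoplasmic part of their own. The signal is carried by the CD3 gamma, delta and epsilon chains and the zeta chain (Cd247), whose cytoplasmic tyrosines are phosphorylated by the kinase Lck, held near the receptor by CD4 or CD8. CD4 marks helper and regulatory T cells and CD8 marks cytotoxic T cells. The liver holds many CD8 T cells, natural killer (NK) cells and NKT cells in its sinusoids. Several of the genes are not limited to T cells: NK cells use the zeta chain and Lck, and some dendritic cells carry CD8 alpha without CD8 beta.

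Cd3g, Cd3d and Cd3e are consecutive protein-coding genes on chromosome 9 (RefSeq, GRCm38.p6), and Cd8b1 and Cd8a are neighbours on chromosome 6. The promoters of the signalling chain genes are shown because these genes moved together between libraries. Each sequence is the 250 bases before the gene's start on the gene's strand, from RefSeq's promoters on GRCm38.p6, a build that differs from the GRCm39 named for the counts. Capitals mark the letters GGAAGT, the core bound by ETS factors, and CAGGTG, an E-box, each searched on both strands.
Cd3g (chr9:44980432-44980681, minus strand): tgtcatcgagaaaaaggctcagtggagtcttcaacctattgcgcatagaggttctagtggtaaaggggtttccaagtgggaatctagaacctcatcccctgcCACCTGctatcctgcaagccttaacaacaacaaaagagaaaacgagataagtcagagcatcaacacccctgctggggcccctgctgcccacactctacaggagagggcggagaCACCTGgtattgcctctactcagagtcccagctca
Cd3d (chr9:44981536-44981785, plus strand): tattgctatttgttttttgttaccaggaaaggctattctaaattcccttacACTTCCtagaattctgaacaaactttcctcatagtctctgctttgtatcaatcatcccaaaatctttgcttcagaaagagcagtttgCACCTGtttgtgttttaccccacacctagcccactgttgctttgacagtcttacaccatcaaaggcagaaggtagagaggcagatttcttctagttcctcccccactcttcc
Cd3e (chr9:45009612-45009861, minus strand): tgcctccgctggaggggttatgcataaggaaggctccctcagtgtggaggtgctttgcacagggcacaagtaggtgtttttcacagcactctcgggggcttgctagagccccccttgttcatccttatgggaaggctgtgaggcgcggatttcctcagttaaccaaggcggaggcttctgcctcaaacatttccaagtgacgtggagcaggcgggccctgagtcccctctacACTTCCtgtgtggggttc
Cd247 (chr1:165788431-165788680, plus strand): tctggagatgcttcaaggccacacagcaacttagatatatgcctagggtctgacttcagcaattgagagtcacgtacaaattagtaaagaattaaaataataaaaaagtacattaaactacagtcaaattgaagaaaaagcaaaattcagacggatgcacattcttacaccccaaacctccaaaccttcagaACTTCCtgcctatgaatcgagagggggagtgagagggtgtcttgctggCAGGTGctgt

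Of the 10 genes, 7 matched an entry in the promoter table, with 9 promoters between them, and Cd4, Cd8b1 and Cd28 are named only. GGAAGT was present in 5 of the 9 promoters (Cd3d, Cd3e, Cd247 and both of Lck) and in 19.7% of all 32851 promoters of this length. CAGGTG was present in 4 of the 9 (Cd3d, Cd3g, Cd247 and 1 of Lck) and in 17.2% of all. TGTGGT, the core of RUNX sites, was present in 1 of the 9 (Lck) and in 14% of all. The letters AGATAA, recognised by factors of the Gata3 family, were present in 2 of the 9 (Cd3g and Foxp3) and in 9.99% of all. No marked runs overlapped in the sequences shown. These are matches of letters, counted for motifs chosen after the results were known, and they do not show binding.

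The libraries held between 11678385 and 32003205 counts, so that 1 count was worth 0.0303 to 0.0830 CPM (the count relative to the TMM-scaled library total). The 10 genes together took between 0.0152% and 0.0394% of the counts of a library, or 2324 to 7442 counts. WT replicate 2 and KO replicate 3 stood apart from the others on the first principal component of all genes tested (33.9% of the variance), at 46.2 and 45.8 against -27.1 to -1.96. On the second component (27.5%) they lay at opposite ends, at 48.2 and -51.3 against -8.24 to 8.03, so they also stood apart from each other. Ribosomal RNA (Rn18s) made up 7.54% of KO replicate 3 and at most 0.122% of any other library. Mitochondrial genes took 33.2% of KO replicate 2 and 17.3% to 22.4% of the others. The targeted gene Ptpn11, which other cells of the fraction also express, had a mean of 83.5 CPM (SD 8.57, n = 4) in WT libraries against 78.5 CPM (SD 8.11, n = 3) in KO libraries, and the groups overlapped, so it does not check the labels.

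All 10 genes were detected in all 7 libraries. Rag2 had at most 0.0830 CPM and Ptcra at most 0.0420 CPM in any library, and Rag1 at most 0.355 CPM, so these genes of T cells maturing in the thymus were near 0. Dntt, also a gene of immature lymphocytes, was above them at 2.60 to 6.30 CPM. In bulk RNA, fewer T cells and less RNA of a gene per T cell cannot be told apart.

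The CD3 genes were highest in WT replicates 1 and 3 and KO replicate 2 and lowest in WT replicate 2 and KO replicate 3. Cd3d, the delta chain that pairs with epsilon, was at 79.7, 23.1, 80.3 and 60.04 CPM in WT replicates 1 to 4 and at 58.3, 93.5 and 35.9 CPM in KO replicates 1 to 3. Its highest value was in a KO library and its lowest in a WT library, and the groups overlapped over nearly the whole range.

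Cd3g, the gamma chain that also pairs with epsilon, was at 80.7, 34.6, 72.4 and 57.6 CPM in WT and at 59.1, 65.9 and 22.8 CPM in KO libraries. Cd3e, the epsilon chain shared by both pairs, was at 30.7, 16.1, 35.6 and 21.1 CPM in WT and at 16.2, 25.1 and 13.1 CPM in KO libraries. For both genes KO replicate 3 was the lowest library and KO replicates 1 and 2 lay within the WT range.

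Cd247, the zeta chain, which carries most of the receptor's signalling tyrosines, was at 13.7, 4.81, 12.4 and 9.62 CPM in WT and at 9.02, 10.1 and 5.44 CPM in KO libraries. It ordered the libraries much as the CD3 genes did, with WT replicate 2 and KO replicate 3 far below the rest.

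The CD3 genes did not keep a fixed ratio to each other. Counts of Cd3g per count of Cd3d were 1.01, 1.5, 0.902 and 0.959 in WT and 1.01, 0.704 and 0.635 in KO libraries. The highest ratio and the lowest were in WT replicate 2 and KO replicate 3, the libraries that stood apart over all genes. Counts of Cd3d per count of Cd3e were 2.59, 1.43, 2.25 and 2.85 in WT and 3.59, 3.73 and 2.74 in KO libraries, with KO replicates 1 and 2 above every WT library and KO replicate 3 within the WT range. These ratios were chosen after their values were seen and were not tested.

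**Figure D1:**
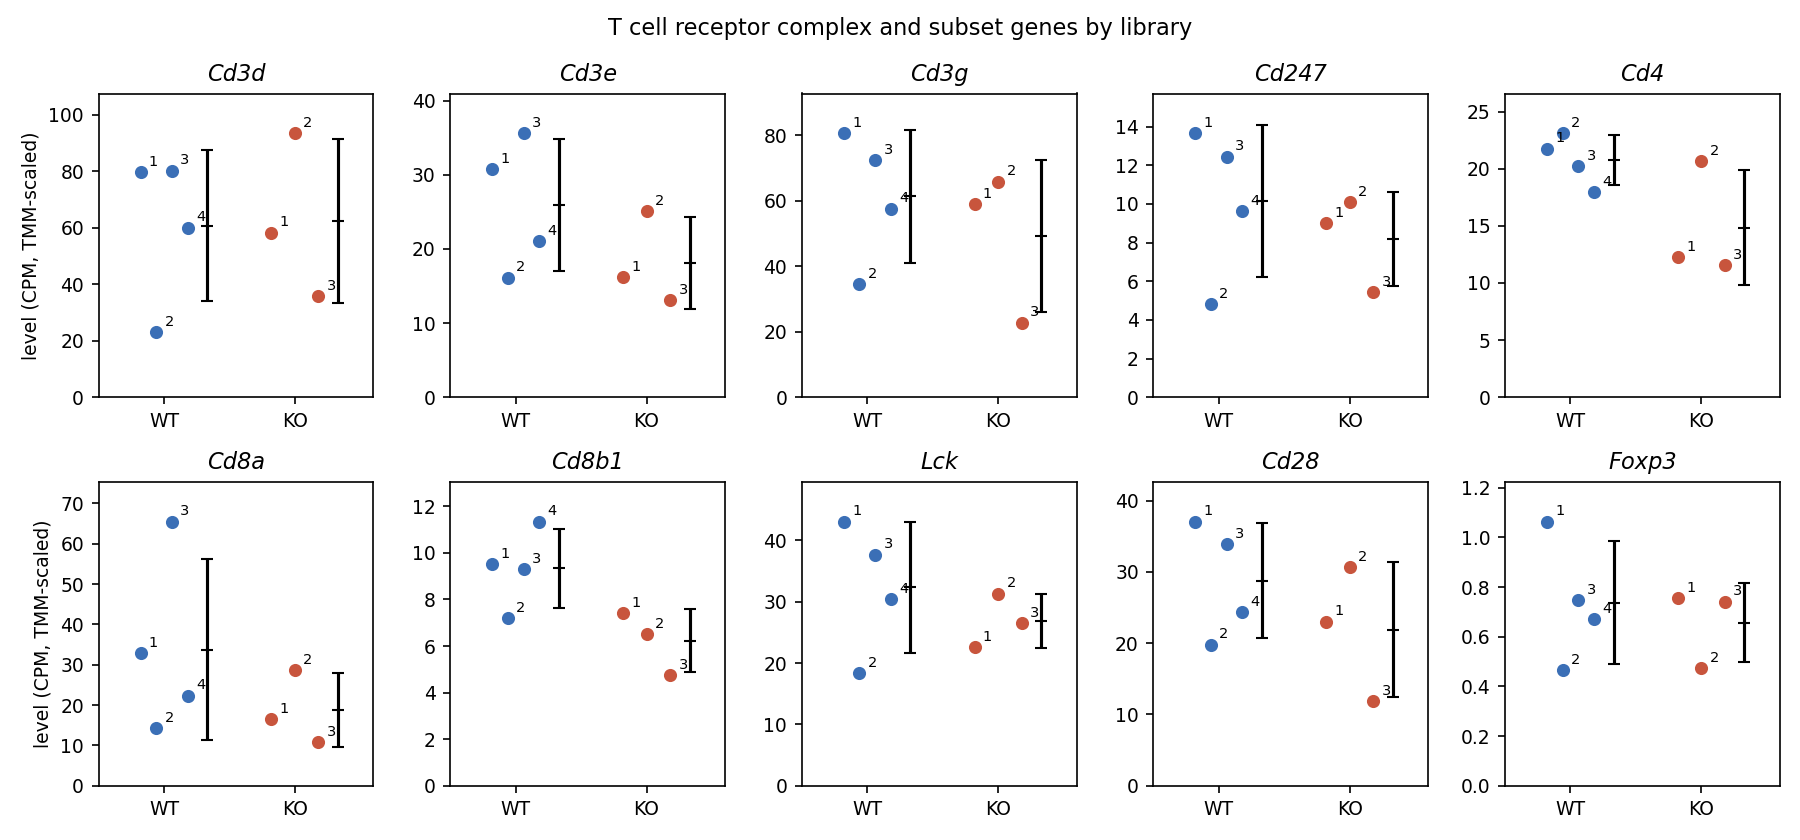
Level of each of the 10 genes in CPM (linear axes from 0) in the WT libraries (blue, n = 4) and KO libraries (red, n = 3), each point numbered by replicate; the black bar is the mean ± SD. WT replicate 2 and KO replicate 3 hold the lowest values of Cd3d, Cd3g and Cd247, and Cd8a in WT replicate 3 is at 65.5 CPM, above every other library.

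Among the coreceptors, Cd4, which binds MHC class II, had the narrowest spread in WT relative to its mean. It was at 21.8, 23.1, 20.3 and 17.98 CPM in WT and at 12.3, 20.6 and 11.6 CPM in KO libraries. KO replicates 1 and 3 lay below every WT library, and KO replicate 2 lay among them. Cd4 differed from the CD3 genes in WT replicate 2, where it was at its highest while Cd3d and Cd247 were at their lowest. In that library the summed level of 8 Kupffer cell markers was 8217 CPM against 3798 to 4758 CPM in the other WT libraries, and that of 6 endothelial markers was 6137 CPM against 2414 to 3168 CPM. The part of these cells in the Cd4 value was not tested.

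Cd8a, the alpha chain of the receptor for MHC class I, had the highest ratio of highest to lowest library of the 10 genes, at 6.02, while in CPM the SD over WT libraries was larger for Cd3d (26.8) than for Cd8a (22.5). It was at 32.9, 14.2, 65.5 and 22.4 CPM in WT and at 16.5, 28.7 and 10.9 CPM in KO libraries. WT replicate 3 stood well above every other library, and without it the WT and KO values covered much the same range.

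Cd8b1, the beta chain that makes up the CD8 alpha-beta form of cytotoxic T cells, was at 9.52, 7.19, 9.30 and 11.3 CPM in WT and at 7.42, 6.50 and 4.76 CPM in KO libraries. KO replicate 1 lay just above WT replicate 2, and this was the only overlap between the groups for this gene. Cd8b1 did not follow Cd8a into WT replicate 3, where it was in the middle of the WT values.

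Counts of Cd8a per count of Cd8b1 were 3.45, 1.98, 7.04 and 1.97 in WT and 2.23, 4.42 and 2.29 in KO libraries, so that WT replicate 3 had the highest ratio. In the same library Gzmb, a cytotoxic granule protease, was at 162 CPM against 42.4 to 59.96 CPM in the other WT libraries. Cd7, a surface protein of T and NK cells, was at 40.6 CPM there against 10.1 to 21.3 CPM. The 10 NK cell markers, of which Gzmb is 1, summed to 689 CPM there and to 396, 200.05 and 357 CPM in the other WT libraries. Markers of dendritic cells, some of which carry CD8 alpha, summed to 344 CPM in WT replicate 3 and to 268, 326 and 294 CPM in the other WT libraries. Of their defining genes, Xcr1 was at 9.05 CPM there against 7.23 to 11.2 CPM, and Clec9a was at 94.8 CPM against 53.4 to 70.7 CPM. The part of these cells in the Cd8a value was not tested.

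**Figure D2:**
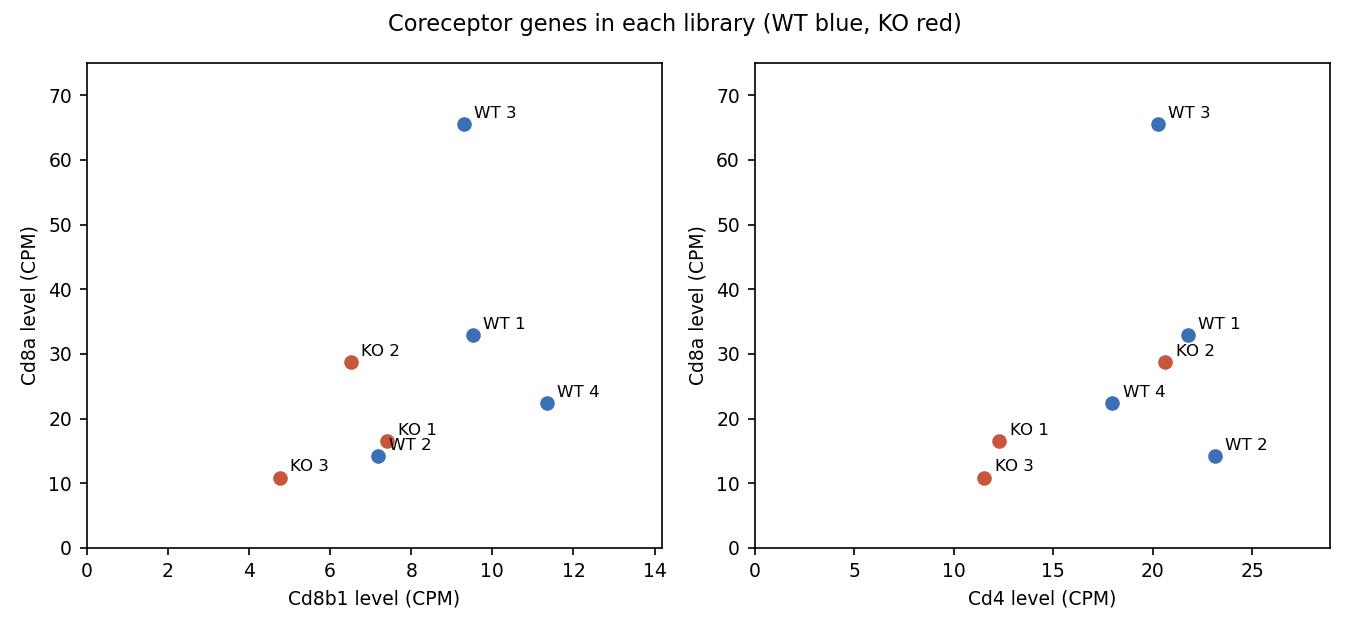
Cd8a level against Cd8b1 level (left) and against Cd4 level (right), in CPM on linear axes from 0, with 1 point per library. WT replicate 3 lies at 65.5 CPM of Cd8a with Cd8b1 at 9.30 CPM, and WT replicate 2 has the highest Cd4 at 23.1 CPM with Cd8a at 14.2 CPM.

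Lck, the kinase that starts signalling at the receptor, was at 43.1, 18.4, 37.7 and 30.4 CPM in WT and at 22.6, 31.3 and 26.6 CPM in KO libraries, with every KO library inside the WT range. KO replicate 3, the lowest library for 6 of the 10 genes, was not low for Lck. Per count of Cd3e it had 2.03 counts of Lck there, against 1.06 to 1.44 in the other 6 libraries. Zap70, the kinase that binds the phosphorylated chains, and Csk, the kinase that holds Lck inactive, were also not low in KO replicate 3, at 9.70 and 74.1 CPM.

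Cd28, the costimulatory receptor for Cd80 and Cd86, was at 37.1, 19.8, 34.0 and 24.3 CPM in WT and at 23.0, 30.7 and 11.9 CPM in KO libraries. Only KO replicate 3 fell outside the WT range. Cd28 ordered the 7 libraries exactly as the summed CD3 genes did.

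Foxp3, the transcription factor of regulatory T cells, was near the limit of detection, with 20, 9, 9 and 16 counts in WT and 25, 8 and 12 counts in KO libraries. In CPM it was at 1.06, 0.465, 0.747 and 0.672 in WT and at 0.757, 0.473 and 0.741 in KO libraries, all within the WT range. The value of 3 counts, which a count of 0 can hide, was 0.0908 to 0.249 CPM, and this floor covers counting error only.

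Per length, the receptor chains differed in level from each other. In CPM per kilobase of exon, with lengths from the merged exons of GENCODE vM21, Cd3d was first at 33.9 ± 14 (SD over 7 libraries). Cd3g followed at 17.2 ± 6.30, Lck at 10.2 ± 2.90 and Cd8a at 7.51 ± 5.11. Cd3e, Cd8b1, Cd4 and Cd28 lay close together at 5.53 ± 2.04, 5.40 ± 1.48, 4.52 ± 1.14 and 4.22 ± 1.43. Cd247 was at 1.75 ± 0.617 and Foxp3 last at 0.154 ± 0.0443. Cd3d was above Cd3g, Cd28 above Cd247, and Cd247 above Foxp3 in all 7 libraries, while Cd3e was above Cd8b1, and Cd4 above Cd28, in only 4 of 7. Only between Cd247 and Foxp3 did neighbouring ranges not overlap. The lengths are from another annotation than the counts and take no account of which isoforms were present.

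**Figure D3:**
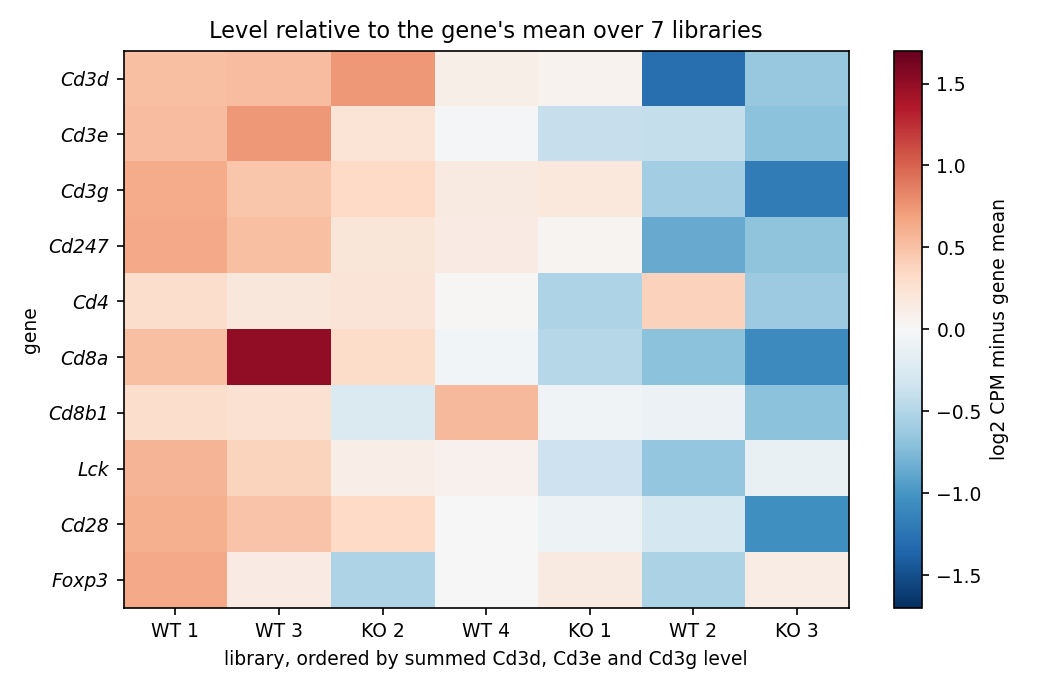
Log2 CPM of each gene minus its mean over the 7 libraries (colour, from -1.7 to 1.7), with libraries ordered from left to right by the summed level of Cd3d, Cd3e and Cd3g. Most genes pass from above to below their mean from left to right, and Cd4 in WT replicate 2 and Cd8a in WT replicate 3 depart from that order.

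The pattern across libraries was shared by most of the genes. WT replicate 2 was the lowest library for 4 genes (Cd3d, Cd247, Lck and Foxp3) and KO replicate 3 for the other 6, whereas these libraries were lowest for 25.5% and 24.9% of all 14077 genes tested. Both together were the lowest pair for 6 of the 10 (Cd3d, Cd3e, Cd3g, Cd247, Cd8a and Cd28), and for 13.4% of all genes. The summed level of Cd3d, Cd3e and Cd3g was 191, 73.9, 188 and 139 CPM in WT and 134, 184 and 71.8 CPM in KO libraries. Against the log2 of this sum, over 7 libraries that share their depth and scaling, Pearson's r (with Spearman's rho) was 0.972 (0.964) for Cd247, 0.918 (1.00) for Cd28, 0.852 (0.964) for Cd8a and 0.783 (0.893) for Lck. It was lower for Cd8b1 at 0.600 (0.607), Cd4 at 0.387 (0.429) and Foxp3 at 0.335 (0.464). Without WT replicate 2 and KO replicate 3, the farthest from the median of the sum, r was 0.826 for Cd247, 0.967 for Cd28, 0.789 for Cd8a, 0.838 for Lck and 0.850 for Cd4. It was -0.146 for Cd8b1 and 0.0938 for Foxp3. These values are a description and were not tested.

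Of 12150 other genes with a mean of at least 2 CPM, the 10 with the pattern most like the CD3 sum over the 7 libraries were Apol7e, Cxcr6, Grap2, Tmem154, Tmem62, Gimap7, Sesn3, Ms4a4b, AI504432 and Trgc4. Their Pearson's r ran from 0.991 (Apol7e) to 0.973 (Trgc4), and from 0.772 (AI504432) to 0.979 (Gimap7) without the farthest libraries. Cxcr6, the receptor for Cxcl16 on liver T and NKT cells, was at 286, 67.4, 227 and 149 CPM in WT and at 175, 238 and 63.6 CPM in KO libraries, and was lowest in the same libraries as the CD3 sum. Grap2 encodes an adaptor that links Lat to Lcp2 below the receptor, and it was at 15.5 and 16.0 CPM in WT replicate 2 and KO replicate 3 against 24.9 to 37.0 CPM elsewhere. Ms4a4b, a surface protein of T cells, ranged from 58.3 to 218.5 CPM. Trgc4, a constant gene of the gamma chain, ranged from 4.2 to 11.6 CPM. Any reads that it shares with related genes may have been dropped or split.

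The comparison of KO with WT libraries asks whether T cell transcripts in the fraction differed where Cre was directed at Ptpn11 in Kupffer cells. The loss of Shp2 in those cells cannot be seen in these libraries. Because the labels do not give the Cre or floxed status of the WT mice, effects of Shp2 loss and of the Cre driver cannot be told apart. No member passed edgeR's quasi-likelihood test over all genes (0 of 10 at adjusted p under 0.05), in a comparison where 0% of the 14077 genes tested passed and 650 genes were at unadjusted p under 0.05. DESeq2 called 0 of the 10 at adjusted p under 0.05 (0.361% of its genes), as did voom (0%) and voom with quality weights (0.0639%). The smallest adjusted p among the members was 0.956 in edgeR, 0.946 in DESeq2 and 0.319 in voom with quality weights, the last for Cd8b1. The log2 fold change was below 0 in 9 of 10 members, where 48.3% of all genes were below 0, and the members' median was -0.35 against 0.01 over all genes. The members share cells and libraries and are not independent, so this count is a description.

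The mean of Cd8b1 was 9.34 CPM in WT (SD 1.7, n = 4) and 6.23 CPM in KO libraries (SD 1.35, n = 3), a log2 difference of -0.58 ± 0.26 (SE; edgeR, unadjusted p = 0.0481, adjusted p = 0.956). It was the only member at unadjusted p under 0.05 (1 of 10), where 4.62% of all genes, 2.35% lower and 2.27% higher, were at that level. DESeq2 had Cd8b1 alone at that level (1 of 10; 4.3% of all genes), and voom had Cd4 in its place (1 of 10; 4.52%). Cd8b1 was not at that level with WT replicate 1, 3 or 4 or KO replicate 2 or 3 left out. Cd8a had the most negative value at -0.85 ± 0.49 (SE; edgeR, adjusted p = 0.956), with a 95% interval of -1.94 to 0.25. That value was -0.31 without WT replicate 3, -1.30 without KO replicate 2 and -1.10 without WT replicate 2.

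Cd4 was at -0.49 ± 0.25 (SE; edgeR, adjusted p = 0.956), from 20.8 CPM in WT (SD 2.2, n = 4) to 14.8 CPM in KO libraries (SD 5.04, n = 3). It was at -0.81 without KO replicate 2 and -0.29 without both WT replicate 2 and KO replicate 3. Cd3e was at -0.51 ± 0.32, Cd28 at -0.39 ± 0.33, Cd3g at -0.31 ± 0.37, Cd247 at -0.30 ± 0.37, Lck at -0.27 ± 0.28 and Foxp3 at -0.15 ± 0.42 (log2 fold change ± SE). With 1 library left out, Cd3e ran from -0.83 (without KO replicate 2) to -0.32 (without WT replicate 3), and Cd28 from -0.72 (without KO replicate 2) to -0.10 (without KO replicate 3). Cd247 ran from -0.54 (without WT replicate 2) to -0.08 (without KO replicate 3), and Lck from -0.47 (without WT replicate 2) to -0.10 (without WT replicate 1). Cd3d alone was above 0, at 0.04 ± 0.42 with a 95% interval of -0.89 to 0.98. The intervals of the CD3 genes and Cd247 allow changes of nearly 1 log2 unit or more downward. The groups overlapped in all 10 members, whereas in 6.07% of all genes they did not (KO below in 3.05% and above in 3.03%).

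**Figure D4:**
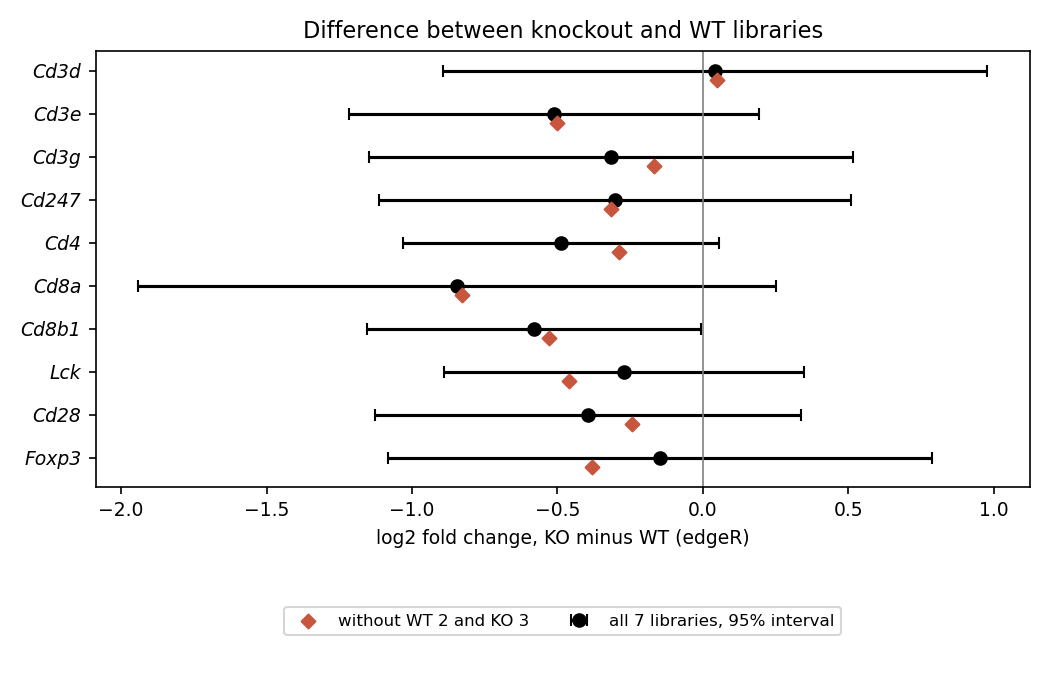
Log2 fold change of each gene, KO minus WT, from edgeR with its 95% interval over all 7 libraries (black), and the value without WT replicate 2 and KO replicate 3 (red diamonds). Every interval except that of Cd8b1 spans 0, and the value of Cd8b1 was -0.53 without those libraries.

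Without WT replicate 2 and KO replicate 3, 9 of 10 members were still below 0. Cd8b1 was at -0.53 ± 0.18 (SE; edgeR, unadjusted p = 0.0214, adjusted p = 0.592) and Lck at -0.46 ± 0.21 (SE; edgeR, unadjusted p = 0.0603). Cd3d was at 0.05 and Cd3g at -0.17, and 0 of 10 members passed over all genes. At unadjusted p under 0.05 there was 1 member of 10, where 7.58% of all genes were at that level.

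Ratios within a library do not depend on the scaling between libraries, and 6 were compared, on log2 CPM with a prior count of 2. A two-sided exact permutation test of the group labels has 35 assignments, so that p cannot go below 0.0286, and after adjustment over the 6 a single ratio could not have passed 0.05. The unadjusted p ran from 0.429 to 0.971 and the adjusted p from 0.960 to 0.971. The log2 ratio of Cd8b1 to Cd8a averaged -1.63 in WT (SD 0.87, n = 4) against -1.48 in KO libraries (SD 0.56, n = 3; exact permutation test, p = 0.800, adjusted p = 0.960). That of Cd4 to Cd8a was -0.47 ± 0.98 against -0.27 ± 0.31 (exact permutation test, p = 0.686). That of Foxp3 to Cd4 was -4.68 ± 0.48 against -4.28 ± 0.78 (exact permutation test, p = 0.429), the largest difference of the 6, on 8 to 25 Foxp3 counts per library.

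The summed CD3 genes relative to Ncr1, a receptor of NK cells, had a log2 ratio of 3.43 ± 0.29 in WT and 3.25 ± 0.36 in KO libraries (exact permutation test, p = 0.486). Cd247 relative to the CD3 sum was at -3.86 ± 0.06 and -3.92 ± 0.24 (exact permutation test, p = 0.743), and its SD of 0.06 was the smallest of the 6 ratios in WT. Lck relative to the CD3 sum was at -2.16 ± 0.13 and -2.18 ± 0.65 (exact permutation test, p = 0.971). The wide KO spread of Lck came from KO replicate 3, at -1.43 against -2.56 and -2.55 in KO replicates 1 and 2.

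Among 30 genes that signal below or beside the receptor, edgeR called 0 over all genes, and 23 were below 0 with a median log2 fold change of -0.19. At unadjusted p under 0.05 there were 5, all lower (2.35% of all genes were lower at that level). They were the adaptor Pag1, which holds Csk at the membrane (-0.69 ± 0.24, SE), the phosphatase Ptpn22 (-0.71 ± 0.32), the ubiquitin ligase Cblb (-0.66 ± 0.23), the adaptor Sla (-0.55 ± 0.25) and the surface receptor Cd5 (-0.97 ± 0.41). At least Pag1, Cblb and Sla are also used outside T cells. Ptpn22 had a mean of 75.6 CPM in WT libraries, where Cd3d, Cd3g and Cd3e had 60.8, 61.3 and 25.9 CPM. Per kilobase of exon, Ptpn22 was at 11.2 CPM, against 33.5, 18.8 and 6.35 CPM for those genes. The part of other cells in the values of the 5 genes was not tested. Among other genes of the list known to restrain receptor signalling, Csk was at 0.25 ± 0.27, Sla2 at -0.06 ± 0.33 and Ubash3a at -0.31 ± 0.43. The surface receptor Cd6 was at -0.81 ± 0.40 (SE; edgeR, unadjusted p = 0.0719). Cd5 was at 8.03, 3.83, 14.1 and 5.92 CPM in WT and at 4.06, 4.79 and 3.27 CPM in KO libraries, so that WT replicate 2 lay within the KO range.

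Zap70 was at -0.20 ± 0.33, the scaffold Lat at -0.14 ± 0.38, its partner Lcp2 at 0.14 ± 0.18 and the kinase Fyn at 0.03 ± 0.25 (log2 fold change ± SE). Themis, a regulator of T cell selection, was at -0.69 ± 0.36. Fyn and Lcp2 are made by many cell types of this fraction, and their levels in WT replicate 2, at 281 and 77.6 CPM, did not drop with those of the CD3 genes.

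The receptor's own chains had 4 constant gene rows, all below 0 with a median of -0.22 and 0 at unadjusted p under 0.05, while Trac, Trbc1 and Trdc are not analysed here. Trbc2, a constant gene of the beta chain, was at 72.6, 25.0, 53.2 and 52.8 CPM in WT and at 44.3, 56.7 and 28.7 CPM in KO libraries (-0.24 ± 0.34, SE). The 20 rows of beta chain variable segments, summed after their values were seen, were at 74.3, 26.4, 66.2 and 50.7 CPM in WT and at 45.1, 58.5 and 24.1 CPM in KO libraries. Both sets of values were lowest or next to lowest in WT replicate 2 and KO replicate 3, as for the CD3 genes. Reads of segments that resemble each other may have been dropped or split.

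Of 6 genes of the CD28 family and its ligands, all were below 0 (median -0.44; 48.3% of all genes were below 0) and 1 was lower at unadjusted p under 0.05 (2.35% of all genes). This was Cd80, a ligand of Cd28 on antigen-presenting cells, at 12.6, 20.1, 13.4 and 12.6 CPM in WT and at 8.84, 9.70 and 10.2 CPM in KO libraries. Every KO library lay below every WT library, as in 3.05% of all genes (-0.62 ± 0.24, SE; edgeR, unadjusted p = 0.026, adjusted p = 0.956). The other ligand, Cd86, was at -0.34 ± 0.19, and the receptors Icos and Ctla4 were at -0.28 ± 0.25 and -0.54 ± 0.55.

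Among 16 transcription factors of the T cell lineage, 13 were below 0 (median -0.25) and 0 were at unadjusted p under 0.05. Lef1, a factor of naive T cells, was at 5.16, 3.67, 4.98 and 3.91 CPM in WT and at 3.18, 3.08 and 2.60 CPM in KO libraries (-0.58 ± 0.27, SE; edgeR, unadjusted p = 0.0556). Every KO library was below every WT library, as in 3.05% of all genes. The factors of the CD4 and CD8 branches, Zbtb7b and Runx3, were at 0.22 ± 0.26 and -0.31 ± 0.27. Those of helper subsets were at -0.43 ± 0.33 (Tbx21) and -0.25 ± 0.36 (Gata3), and Tcf7 was at -0.24, Bcl11b at -0.28 and Ikzf2 at 0.02.

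Among 18 surface and state genes, 16 were below 0 (median -0.30; 48.3% of all genes), and 2 were lower at unadjusted p under 0.05 (2.35% of all genes). S1pr1, a receptor for exit from tissues that endothelial cells also carry, was at -0.81 ± 0.34 and reached 238 CPM in WT replicate 2, where the endothelial sum was highest. Il2ra, a chain of the interleukin 2 receptor on regulatory and activated T cells, was at -0.61 ± 0.28 (edgeR, unadjusted p = 0.0497, adjusted p = 0.956). Il7r, a survival receptor of resting T cells, was at -0.71 ± 0.33.

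Other lymphocytes were measured in the same fraction. Of 10 NK cell markers, 8 were below 0 (median -0.13; 48.3% of all genes), with 2 lower at unadjusted p under 0.05 (2.35% of all genes). They were Klrb1c (-0.88 ± 0.33, SE) and the perforin gene Prf1 (-0.69 ± 0.29). For Prf1 every KO library lay below every WT library, as in 3.05% of all genes. Ncr1 was at -0.03 ± 0.49, with 5.12 CPM in WT replicate 2 and 5.99 CPM in KO replicate 3 against 12.7 to 21.4 CPM elsewhere, as the CD3 genes. Of 7 B cell markers, all were above 0 (median 0.16), and Cd79a was at 0.12. Their summed level was 220 CPM in KO replicate 3, within the WT range of 167 to 226 CPM, and it was lowest in WT replicate 2. Single B cell genes differed, and Ms4a1 (38.7 CPM) and Fcrla (17.9 CPM) were lowest in KO replicate 3.

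Of 9 dendritic cell markers, 5 were above 0 (median 0.05) and 0 were at unadjusted p under 0.05, with Siglech at 0.05 and Xcr1 at -0.11. Of 8 Kupffer cell markers, 7 were below 0 (median -1.20) and 5 were lower at unadjusted p under 0.05 (2.35% of all genes), Clec4f (-1.69 ± 0.39), Cd163, Timd4, Vsig4 and C6. The summed Kupffer cell level was 3798 to 8217 CPM in WT and 2271 to 3341 CPM in KO libraries. This sum includes Clec4f, the gene that drives the Cre, at 1385 to 2654 CPM in WT and 435 to 864 CPM in KO libraries. In WT replicate 3, the lowest WT library, Clec4f gave 1385 of the 3798 CPM. In KO replicate 3, the highest KO library, it gave 864 of the 3341 CPM, so the gap between the summed levels rests on Clec4f. In each of the 5 genes named, Clec4f among them, every KO library lay below every WT library (3.05% of all genes). The endothelial sum was 2414 to 6137 CPM in WT and 2695 to 4208 CPM in KO libraries, with 0 of 6 at unadjusted p under 0.05. It was highest in WT replicate 2 and next in KO replicate 3 (4208 CPM), the libraries lowest in the CD3 genes. The part of cell composition in the T cell values was not tested.

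Of 5 stellate cell markers, 2 were higher at unadjusted p under 0.05, Col3a1 and Ngfr, at 0.58 and 0.93 (2.27% of all genes were higher at that level). Of 4 neutrophil markers tested, all were above 0, with 1 higher at unadjusted p under 0.05 (Retnlg, 1.251; 2.27% of all genes), and of 5 hepatocyte markers all were below 0 with 0 at that level. The hepatocyte sum was 18033 to 53205 CPM in WT and 16843 to 37135 CPM in KO libraries, so hepatocyte RNA was also present in every library.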

How the data were processed

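The authors deposited raw read counts per gene, as a single table (20354 genes, 7 libraries, 384 genes with no count). FastQC 0.11.9, STAR 2.7.10a, SAMtools 1.9, featureCounts 2.0.3 and GRCm39 are named, per the submitters' processing notes; for settings and annotation the sources used here give nothing. The TruSeq RNA v2 kit named in the labels does not mark strand, so overlapping genes cannot be told apart. Symbols were matched to RefSeq's GRCm38.p6 table (20256 by current symbol, 18 by synonym), and 3 list genes had no row.

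Groups were compared with the quasi-likelihood test of edgeR 4.0.16 in R 4.3.3 (robust fit, TMM factors, group as the only term) on 14077 genes kept by filterByExpr (minimum count 10, minimum total 15), with Benjamini-Hochberg adjustment over all of them and a threshold of 0.05. Standard errors were derived from fold change and F. Log2 CPM used a prior count of 2. Alternatives used DESeq2 1.42.0, limma voom 3.58.1, other scalings and filters, and fewer libraries. On simulated counts for this comparison (13906 genes), edgeR recovered 25 of 100 simulated 2-fold changes and 94 of 100 at 4-fold, with 8 false calls. Genes were drawn independently around a common mean, with no libraries that stand apart. These shares therefore do not measure what could be found in the deposited counts. There edgeR called 0 genes, and Cd163, at a log2 fold change of -3.41, had an adjusted p of 0.184 (edgeR). Library pairs differed by 40.5 to 314 in chi-square per degree of freedom, so none was a copy.

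Named genes were the 10 members, fixed genes of each list, list genes at unadjusted p under 0.05, and the 10 genes most like the CD3 sum; a few others are given as values in libraries that stand apart, chosen after their values were seen. The members and lists were chosen with earlier results of these data known. Some list genes that this rule names are not reported here.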

Additional observations from a re-analysis of the deposited data

How the results depend on the processing

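No member passed over all genes in edgeR, DESeq2, voom with or without quality weights, or any other scaling, filter or set of libraries run (0 of 10, or 0 of 9 with the filter of 1 CPM in 3 libraries, which dropped Foxp3); adjusted p ran from 0.319 to 1.00. At unadjusted p under 0.05 the 1 member (Cd8b1; 4.62% of all genes) gave way to Cd4 with voom (4.52%). The count became 3 with voom and quality weights (Cd3e, Cd8b1 and Lck), where 11.2% of all genes were at that level. It was 0 with upper quartile factors (4.59% of all genes), library size only (4.07%), no filter (4.76%) and the filter of 1 CPM (4.37%). Without 1 library it was 0 to 4, where 3.61% to 5.93% of all genes were at that level. The count was 4 without WT replicate 2 (Cd3e, Cd8a, Cd8b1 and Lck; 4.22% of all genes). Without KO replicate 2 it was 3 (Cd3e, Cd4 and Cd8a; 4.47%), and it was 0 without WT replicate 1, 3 or 4 or KO replicate 3. The 5 signalling genes became 10 with voom and quality weights (11.2% of all genes), 2 with upper quartile factors (4.59%) and 3 with the filter of 1 CPM (4.37%). Without 1 library there were 2 to 7 (2 without WT replicate 1 or 3 or KO replicate 1 or 3), where 3.61% to 5.93% of all genes were at that level. The members' median stayed below 0, from -0.60 without KO replicate 2 to -0.20 without WT replicate 1.

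Of 169 alternative values of single members, 6 changed sign. Cd3d was at -0.056 with library size only and ranged from -0.38 (without KO replicate 2) to 0.32 without 1 library, with -0.23 without WT replicate 2. Cd3g ranged from -0.59 to 0.027 (without KO replicate 3), and Foxp3 from -0.31 to 0.093 (without WT replicate 1; 0.018 without KO replicate 2). Each of the 6 log2 ratio differences changed sign under some choice of libraries, that of Foxp3 to Cd4 only without both WT replicate 2 and KO replicate 3 (-0.062). Without 1 library, the difference for Cd8b1 to Cd8a ran from -0.24 (without WT replicate 3) to 0.47, for Cd4 to Cd8a from -0.20 (without WT replicate 3) to 0.59, for the CD3 sum to Ncr1 from -0.34 to 0.016 (without KO replicate 1), for Cd247 to the CD3 sum from -0.16 to 0.077 (without KO replicate 2), and for Lck to the CD3 sum from -0.39 (without KO replicate 3) to 0.17. The cause of these changes was not tested. Foxp3, at 8 to 25 counts, is limited by depth. No paired analysis was possible because the labels give the libraries no shared replicate numbers.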
